A study of Mus musculus with 24 samples.

Results

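The comparison described here asks how the soleus (SOL) of old exercised (OE) mice differs from that of young exercised (YE) mice, that is, what age does to a slow muscle when all the animals train. It was chosen by labels alone and holds 6 of the 24 libraries of the series, 3 of OE and 3 of YE soleus, over all 18795 genes in the table. OE mice were 84 weeks old and YE mice 9 weeks old by their labels, and all ran on a treadmill for 4 weeks. The study used male C57BL/6 mice without a transgene, housed singly and 3 to a group, and sequenced polyadenylated RNA of whole soleus and gastrocnemius (GAS). Old control (OC) and young control (YC) mice of the same labelled ages did not train, and each library came from a separate mouse within its group and muscle. No age between these was included, so growth and aging cannot be told apart.

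The soleus is a small postural muscle of the calf, built in the mouse of slow fibers and oxidative fast fibers, rich in mitochondria and in use for most of the day. Skeletal muscle that ages loses fiber size and contact between nerve and fiber, and its matrix, iron stores and mitochondria are known to change. Muscle also keeps its own circadian clock, in which BMAL1 (gene Arntl) and CLOCK switch on the Per, Cry, Nr1d1 and Dbp genes, and training and feeding times can shift that clock.

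Levels are given as FPKM, fragments per kilobase of transcript scaled to the mapped fragments of a library, as the authors computed them. Fold changes are on the log2(FPKM + 1) scale after quantile normalization, OE over YE with the standard error (SE), and understate the change of genes near or under 1 FPKM. A gene is said to have risen or fallen where its adjusted p (limma, Benjamini-Hochberg over 18795 genes) was under 0.05. The 6 libraries were alike in the number of genes detected, 10873 to 11207 at 1 FPKM or more. They were also alike in the share of the 10 highest genes, 16.5% to 19.4% of the FPKM. Slow fiber markers summed to 13040 to 15113 FPKM in OE and 12106 to 13702 FPKM in YE libraries. IIb fiber markers summed to 47.7 to 241 FPKM in OE and 50.04 to 108 FPKM in YE libraries, low beside the slow markers. OE 1 was the highest library in each IIb marker. Its Myh4 was at 103 FPKM, against 15.5 in OE 2, 14.2 in OE 3 and 13.2 to 23.6 in YE libraries. Its Actn3 was at 59.3 FPKM, against 10.5 in OE 2, 5.91 in OE 3 and 5.59 to 16.1 in YE libraries. Pvalb was less apart, at 79.5 FPKM in OE 1 and 68.7 in YE 4. The part of these fibers in the changes was not tested. Lymphocyte markers stayed at or under 2.01 FPKM in sum, and blood did not: erythroid markers ran between 0.151 and 109 FPKM in OE and between 0.356 and 118 FPKM in YE libraries, so globin genes are not described further.

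Of the 18795 genes, 523 changed (2.78%), of which 376 rose (2%) and 147 fell (0.782%) in OE soleus. Most changes were small. The median size was 0.34 on the log2 scale among genes that rose and 0.31 among genes that fell, and 56 and 25 of them passed 1.5-fold. The 3 OE and 3 YE libraries did not overlap for any of the 523 genes, and over all genes 22.2% had such separate groups. Separate groups in a gene that rose or fell, as given below, therefore add nothing to its test. At the study's own thresholds, an unadjusted p under 0.05 and a fold over 1.5, there were 198 differentially expressed genes (DEGs, 1.05%), 80 higher (0.426%) and 118 lower (0.628%) in OE, of which 81 also passed the adjusted test. The count rests on a spread taken from all 12 soleus libraries: with the 6 compared libraries alone 6 genes passed, and by the equal-variance test of the study none passed after adjustment and 2790 were under 0.05 before it. Without quantile normalization 163 genes rose and 135 fell, so that 54.7% of calls were rises, against 71.9% with it.

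**Figure D1:**
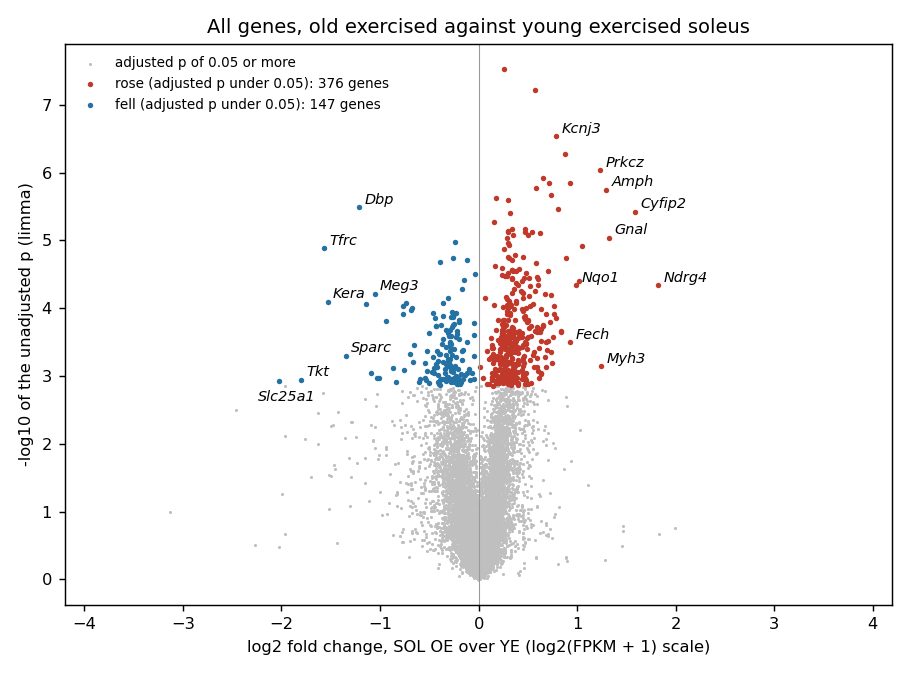
All 18795 genes by log2 fold change (x axis, OE over YE soleus, log2(FPKM + 1) scale) and by −log10 of the unadjusted limma p (y axis). The 376 genes that rose are red, the 147 that fell are blue and the rest gray, with the largest fall at −2.02 (Slc25a1) and the largest rise at 1.82 (Ndrg4).

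The largest rise was that of Ndrg4. This gene, a member of the N-myc downstream-regulated family, had 18.5, 10.4 and 18.1 FPKM in OE soleus, against 3.75, 4.57 and 3.59 FPKM in YE soleus. Each OE library lay far above every YE library, OE 2 being the lowest of the 3, and the log2 fold change was 1.82 (SE 0.25, adjusted p = 0.0119). Cyfip2, a subunit of the WAVE complex that steers actin branching, had 34.5, 47.8 and 41.4 FPKM in OE and 15.4, 11.2 and 16.1 FPKM in YE libraries. It rose by 1.59 (SE 0.16, adjusted p = 0.00428) with no overlap, and it is the most abundant of the 5 genes with the largest rises. Gnal, the G protein alpha subunit first known from olfactory neurons, had 4.85, 2.71 and 4.28 FPKM in OE against 0.902, 0.865 and 1.00 FPKM in YE soleus (log2 fold change 1.32, SE 0.15, adjusted p = 0.00598). Amph, amphiphysin, which bends membranes in endocytosis, had 3.37, 2.32 and 2.96 FPKM in OE against 0.637, 0.442 and 0.499 FPKM in YE soleus (1.29, SE 0.12, adjusted p = 0.00338). Both were at 1.00 FPKM or less in every YE library, and OE 2 was again the lowest OE library, still well above them.

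Prkcz, the atypical protein kinase C zeta, was the steadiest of these genes. Its FPKM was 3.22, 3.23 and 3.18 in OE libraries, against 0.735, 0.858 and 0.695 in YE libraries (log2 fold change 1.23, SE 0.11, adjusted p = 0.00336). Kcnj3, a G protein-gated potassium channel, had 1.07, 1.1 and 0.942 FPKM in OE and 0.125, 0.0697 and 0.183 FPKM in YE soleus (0.78, SE 0.06, adjusted p = 0.00184). Rasd2, a small GTPase of the Ras family, had 3.39, 3.67 and 3.01 FPKM in OE and 1.09, 0.951 and 1.25 FPKM in YE soleus (1.05, SE 0.12, adjusted p = 0.00698). Groups did not overlap in any of these genes, as in all 523 that changed, and a call itself needs a spread that is small beside the difference. Rgs11, which ends signaling of G proteins, rose by 0.83 (SE 0.14, adjusted p = 0.0234), but lost the call in 5 of 12 fits that left out 1 library, with an adjusted p of up to 0.0869 without OE 1.

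The 15 largest rises also held 5 enzymes of metabolism. None of the 20 genes in the list of glycolysis and glycogen passed in either direction, but that list does not hold Pygb, given below. Cds1, which makes the CDP-diacylglycerol needed for phosphoinositides, had 2.45, 3.6 and 3.12 FPKM in OE soleus and 1.07, 0.942 and 0.867 FPKM in YE soleus (log2 fold change 1.02, SE 0.14, adjusted p = 0.0111). Nqo1, a quinone reductase that protects against oxidative stress, had 50.3, 46.9 and 49.5 FPKM in OE and 29, 21 and 27.9 FPKM in YE soleus (0.99, SE 0.14, adjusted p = 0.0119), and was at 0.0520 without OE 1. Fech, ferrochelatase, which places iron in heme, had 64.1, 66.7 and 73.7 FPKM in OE and 36, 37.6 and 37.8 FPKM in YE soleus (0.93, SE 0.17, adjusted p = 0.0255). Fech was the most abundant of the 15 genes with the largest rises, and its groups lay far apart, yet its call was lost in 6 of 12 fits that left out 1 library, with an adjusted p of up to 0.0842 without OE 1. Ogdhl, a relative of the oxoglutarate dehydrogenase of the citric acid cycle, rose by 0.89 (SE 0.11, adjusted p = 0.00842). Pygb, the brain form of glycogen phosphorylase, rose by 0.84 (SE 0.14, adjusted p = 0.0231), a call lost in 5 of the 12 fits, with an adjusted p of up to 0.0722 without YE 2.

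Of the 15 genes with the largest rises 2 encode myosin heavy chains. Myh3, the embryonic myosin heavy chain, had 27.6, 13.9 and 16.5 FPKM in OE soleus and 7.2, 7.16 and 9.44 FPKM in YE soleus, with OE 1 the highest. It rose by 1.24 (SE 0.25, adjusted p = 0.0372), and 8 of 12 fits that left out 1 library lost the call, with an adjusted p of up to 0.119 without YE 1. Myh14, a nonmuscle myosin heavy chain, had 38.7, 36.9 and 39.1 FPKM in OE and 21.9, 20.6 and 23 FPKM in YE soleus, and rose by 0.87 (SE 0.07, adjusted p = 0.00249) whichever library was left out. Ppfibp1, a liprin of cell adhesion sites, had 29.8, 25.7 and 25.6 FPKM in OE and 16.2, 15.4 and 17 FPKM in YE soleus and rose by 0.81 (SE 0.08, adjusted p = 0.00428).

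The largest falls were those of the citrate carrier and of a sugar phosphate enzyme, both of which serve fat synthesis. Slc25a1, which exports citrate from mitochondria, had 4.5, 3.31 and 3.52 FPKM in OE soleus, against 27.3, 13 and 16.6 FPKM in YE soleus. It fell by 2.02 on the log2 scale (SE 0.44, adjusted p = 0.0459). Tkt, transketolase of the pentose phosphate pathway, had 5.83, 4.81 and 4.57 FPKM in OE and 27.2, 15.9 and 17.8 FPKM in YE soleus, and fell by 1.80 (SE 0.39, adjusted p = 0.0451). In both genes OE libraries were close together and YE 1 was the highest library. Both calls were lost in 10 of 12 fits that left out 1 library, with an adjusted p of up to 0.138 without YE 1.

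Fat cell markers stood apart in the same way. The 7 adipocyte markers summed to 290 to 407 FPKM in OE and to 646 to 926 FPKM in YE soleus, and the part of these markers in the falls of Slc25a1 and Tkt was not tested. Adipoq, adiponectin, had 13.9, 13 and 7.36 FPKM in OE against 43.6, 27.9 and 26.2 FPKM in YE soleus, with a log2 fold change of −1.47 that did not pass (adjusted p = 0.177). Of the 14 genes of the adipocyte list 11 had a negative fold change, with a median of −0.99 against 0 over all genes. In that list 7 were DEGs lower in OE, beside 0.628% of all genes. None fell by the adjusted test, and without YC 2 in the fit 6 fell. The 1 that rose was Cidea, a lipid droplet protein, at 6.69, 7.23 and 6.22 FPKM in OE and 4.96, 5.37 and 4.71 FPKM in YE soleus (0.42, SE 0.07, adjusted p = 0.024), with an adjusted p of 0.0858 without OE 1. In whole muscle, fewer cells of a type and less RNA per cell cannot be told apart.

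Fatty acid synthesis genes had the same sign. Of 19 genes in that list 17 had a negative fold change (median −0.28). As DEGs 7 were lower in OE, beside 0.628% of all genes, and none of the 19 passed the adjusted test. Fasn, the fatty acid synthase, had 10.6, 9.1 and 7.47 FPKM in OE against 77.5, 35.9 and 50.9 FPKM in YE soleus, a log2 fold change of −2.46 (SE 0.62, adjusted p = 0.0738). Its groups did not overlap. In untrained young mice Fasn was uneven, at 15.2, 63.2 and 8.83 FPKM in the 3 YC libraries.

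**Figure D2:**
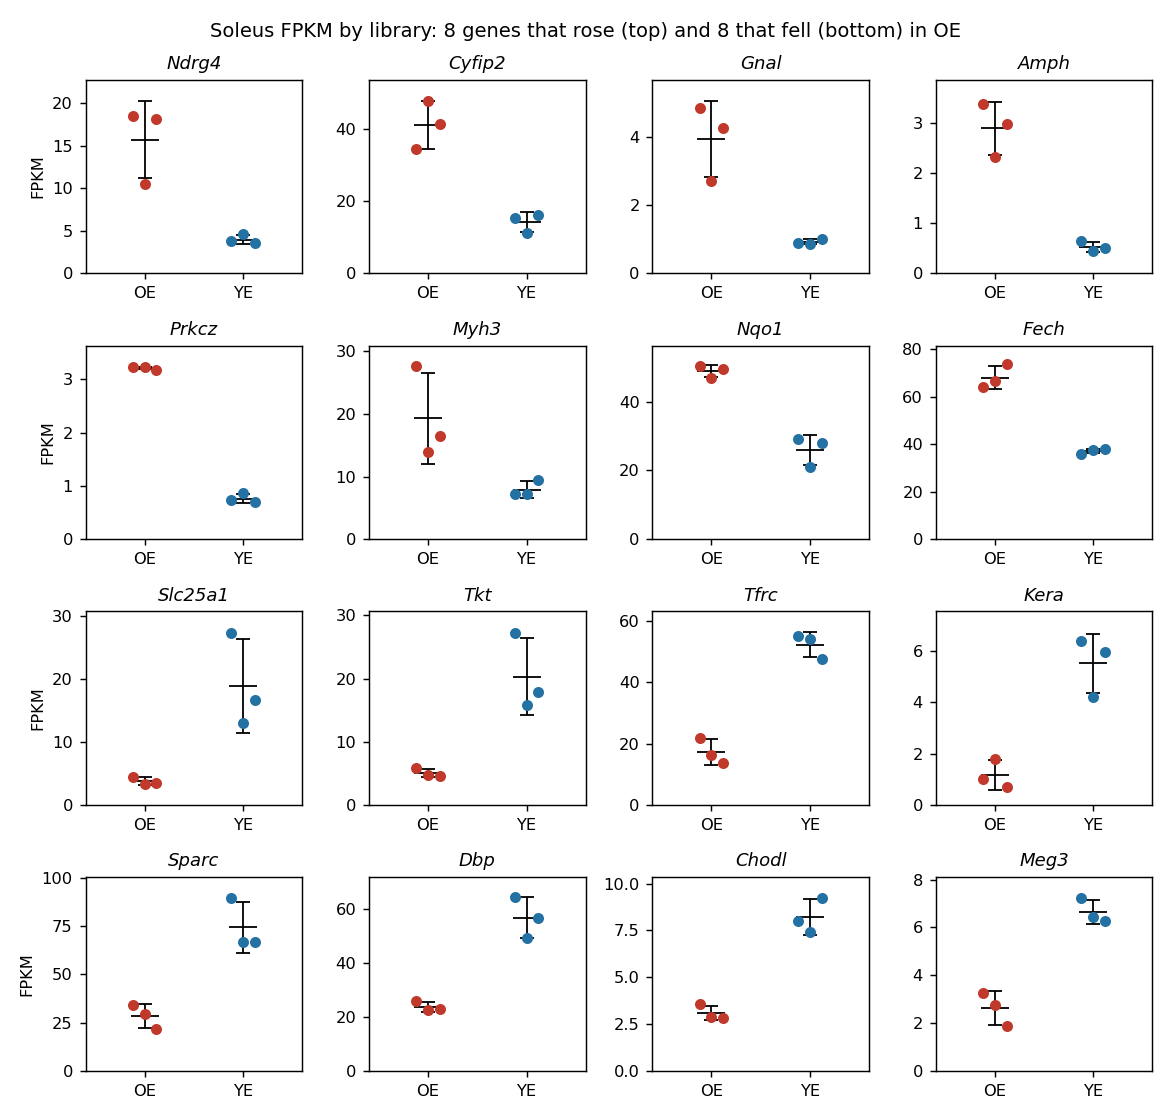
FPKM (y axis) in each soleus library of OE (red, left) and YE (blue, right) mice for 8 genes that rose (top rows) and 8 that fell (bottom rows). Points are mice, the long line is the mean and the bars are 1 SD (n = 3 each). No gene shown has overlapping groups, which holds for all 523 genes that changed.

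Iron handling stood out by its receptor. Tfrc, the transferrin receptor that takes iron into cells, had 21.7, 16.4 and 13.7 FPKM in OE soleus, against 54.9, 54 and 47.5 FPKM in YE soleus. It fell by 1.57 (SE 0.19, adjusted p = 0.00718) with groups far apart. Hfe, which binds that receptor and helps sense iron, had 10.2, 8.57 and 9.16 FPKM in OE and 6.7, 6.34 and 5.81 FPKM in YE soleus, and rose by 0.57 (SE 0.08, adjusted p = 0.0135). Both calls held with each of the 12 soleus libraries left out in turn. The other 12 of the 14 genes in the iron list did not pass.

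Most genes of the matrix lists had negative fold changes, and few of them passed. Sparc, a collagen-binding matrix protein, had 34, 29.5 and 22 FPKM in OE soleus, against 89.5, 66.9 and 66.6 FPKM in YE soleus (log2 fold change −1.35, SE 0.26, adjusted p = 0.0311). Serpinh1, the chaperone HSP47 that folds collagen, had 19.1, 17.1 and 15.7 FPKM in OE and 35, 31 and 25.9 FPKM in YE soleus (−0.77, SE 0.12, adjusted p = 0.0167). These were the 2 genes that fell of the 27 in the list of fibrillar collagens and collagen maturation, beside 0.782% of all genes. In that list 23 fold changes were negative, with a median of −0.38, and 9 genes were DEGs lower in OE, beside 0.628% of all genes. Sparc lost the call in 7 of 12 fits with a library left out (adjusted p of up to 0.105 without YE 1) and Serpinh1 in 2, without OE 3 and without YE 2, where none of the list fell, and in a fit on all 24 libraries 5 did. Col1a1, a chain of type I collagen, had 16.8, 14.9 and 8.95 FPKM in OE and 69.2, 35.4 and 60.3 FPKM in YE soleus. Its log2 fold change of −1.97 (SE 0.44) had an adjusted p of 0.0505 and so just missed the threshold.

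Collagen VI, which forms the fine network around muscle fibers, fell in 2 of its chains, the only genes to pass of the 20 other matrix proteins. Col6a1 had 14.4, 13.8 and 9.8 FPKM in OE and 32.5, 23.9 and 24.5 FPKM in YE soleus (log2 fold change −1.03, SE 0.22, adjusted p = 0.0447). Col6a2 had 12.1, 11.1 and 8.81 FPKM in OE and 28, 19.1 and 20.9 FPKM in YE soleus (−1.01, SE 0.22, adjusted p = 0.0447). In both, YE 1 was highest and OE 3 lowest, and the calls were lost in 11 and 10 of 12 fits with a library left out, with an adjusted p of up to 0.132 without YE 1 for Col6a1. Kera, keratocan of tendon and fascia, had 1.03, 1.81 and 0.688 FPKM in OE and 6.4, 4.22 and 5.98 FPKM in YE soleus and fell by 1.53 (SE 0.23, adjusted p = 0.0163), a call lost in 3 of the 12 fits, with an adjusted p of up to 0.0636 without OE 1. All 10 genes of the tendon list had negative fold changes (median −0.46) and Kera alone passed. Tendon markers summed to 83.9 to 133 FPKM in OE and 119 to 187 FPKM in YE soleus, fibroblast markers to 30.9 to 43.8 FPKM in OE and 39.9 to 69.9 FPKM in YE soleus, and their part in the matrix genes was not tested.

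Genes tied to the nerve and its contact with the fiber were mostly higher. Of the 20 genes in that list, 4 rose and none fell, beside 2% and 0.782% of all genes. A positive fold change was found in 18, and the median was 0.33, against 0 over all genes. Gadd45a, a stress gene that rises in denervated muscle, had 10.7, 11.6 and 11.1 FPKM in OE soleus, against 6.01, 6.47 and 7.2 FPKM in YE soleus (log2 fold change 0.76, SE 0.13, adjusted p = 0.024). Dach2, a transcription factor that links nerve activity to muscle genes, had 5.1, 4.84 and 4.91 FPKM in OE and 2.77, 3.48 and 2.77 FPKM in YE soleus (0.63, SE 0.13, adjusted p = 0.0423). Both had separate groups, like all 523 genes that changed, and OE libraries hardly differed among themselves. Chrnd, the delta subunit of the acetylcholine receptor, had 5.76, 5.19 and 5.61 FPKM in OE and 3.93, 3.65 and 4.05 FPKM in YE soleus (0.48, SE 0.10, adjusted p = 0.0416). Ncam1, the neural cell adhesion molecule, had 9.58, 8.57 and 8.46 FPKM in OE and 5.9, 5.63 and 7.09 FPKM in YE soleus (0.53, SE 0.10, adjusted p = 0.0335). Chrna1, the alpha subunit of the same receptor, had 14.6, 15.8 and 17.7 FPKM in OE and 12.4, 11 and 10.2 FPKM in YE soleus, with separate groups and an adjusted p of 0.138. The calls in this list were few and close to the threshold: none was left without any 1 of OE 1, OE 2, OE 3 or YE 2, 1 was left without YE 1, without YC 1 or without quantile normalization, and 2 were left without YE 4 or without any 1 of the OC libraries.

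All 13 genes of the Schwann cell list had negative fold changes, with a median of −0.19. Chodl, chondrolectin, listed as a satellite cell marker, had 3.55, 2.89 and 2.84 FPKM in OE and 7.99, 7.4 and 9.24 FPKM in YE soleus and fell by 1.14 (SE 0.17, adjusted p = 0.0166). Without OE 3 its adjusted p was 0.0560. Pax7, which defines satellite cells, overlapped between groups, at 0.841, 1.13 and 0.730 FPKM in OE and 1.04, 0.815 and 0.902 FPKM in YE soleus. Calcr, also listed as a satellite cell marker, was low but separate, at 0.109, 0.128 and 0.0992 FPKM in OE and 0.308, 0.229 and 0.217 FPKM in YE soleus.

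Of the contractile genes none passed. The 13 slow genes had a median fold change of 0.13 and the 14 fast genes one of −0.02. Myh7, the slow myosin heavy chain, had 2875, 2853 and 2989 FPKM in OE and 2363, 1876 and 2720.5 FPKM in YE soleus (log2 fold change 0.53, adjusted p = 0.309). The calcium release channel did rise, though by little. Ryr1, which encodes the form of that channel found in skeletal muscle, had 429, 400 and 384 FPKM in OE and 323, 343 and 355 FPKM in YE soleus (0.37, SE 0.07, adjusted p = 0.0278), and without YE 1 its adjusted p was 0.0975. Its groups did not overlap. Ryr1 and the next 3 genes were singled out after their values were seen.

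Yap1, a growth regulator of the Hippo pathway, had 29.4, 30.8 and 28.3 FPKM in OE soleus, against 22.4, 22 and 21.4 FPKM in YE soleus (log2 fold change 0.50, SE 0.06, adjusted p = 0.00586). Igf2r, which sorts lysosomal enzymes and binds insulin-like growth factor II, had 31.2, 26.7 and 29.1 FPKM in OE and 19.9, 18.4 and 19.5 FPKM in YE soleus (0.66, SE 0.06, adjusted p = 0.00336). Mtor, the kinase of growth and autophagy control, had 16.8, 14.9 and 15.4 FPKM in OE and 11.6, 10.5 and 12.6 FPKM in YE soleus (0.47, SE 0.08, adjusted p = 0.0202), a call lost in 4 of 12 fits with a library left out, with an adjusted p of up to 0.0748 without OE 1. The calls of Yap1 and Igf2r held in each of the 12 fits. None of the 20 genes of the atrophy and FoxO list passed, with a median of 0.11, and none of the 76 cytosolic ribosomal proteins did, with a median of −0.07.

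**Figure D3:**
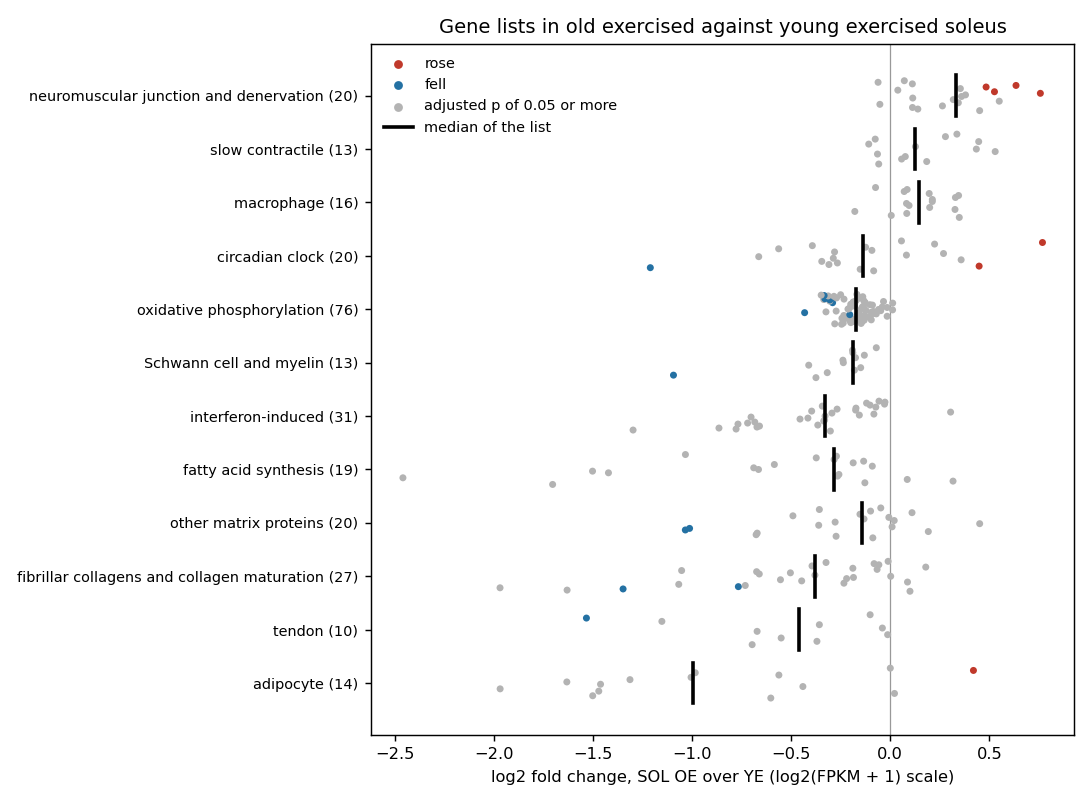
Log2 fold change (x axis, OE over YE soleus) of each gene in 12 lists, with the number of genes in brackets and the list median as a black bar. Genes that rose are red, genes that fell are blue and gray genes had an adjusted p of 0.05 or more, and most lists with medians far from 0 hold few or no genes that passed.

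Genes of oxidative phosphorylation had small fold changes, most of them negative. Of 76 genes for subunits of oxidative phosphorylation, 74 had a negative fold change, 6 fell and none rose, beside 0.782% and 2% of all genes. Their median was −0.17, against 0 over all genes and 0.0081 over the 11211 genes at 1 FPKM or more. Cox7a1, the muscle form of a subunit of cytochrome c oxidase, had 260, 343 and 311 FPKM in OE soleus, against 442, 527 and 442 FPKM in YE soleus (log2 fold change −0.43, SE 0.07, adjusted p = 0.0219). Ndufv2, a subunit of complex I, had 129, 131 and 140 FPKM in OE and 167, 193 and 187 FPKM in YE soleus (−0.33, SE 0.06, adjusted p = 0.0231). The other subunits that fell were Ndufs4, Ndufb4 and Ndufb11 of complex I and Uqcrh of complex III, with fold changes between −0.33 and −0.20. Each of the 6 had separate groups, as had all 523 genes that changed. Without OE 1 or without YE 2 none of the 76 passed, without OE 3 or YE 1 only 1 did and without OE 2 or YE 4 3 did. Without quantile normalization 3 fell and all 76 were negative, with a median of −0.31.

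Lists next to the respiratory chain held few changes. Of 24 genes of fatty acid uptake and oxidation 1 fell, none rose and 14 had a positive fold change (median 0.02). Etfb, which passes electrons from fatty acid oxidation to the chain, had 208, 237 and 241 FPKM in OE and 296, 336 and 288 FPKM in YE soleus (log2 fold change −0.31, SE 0.04, adjusted p = 0.015), and its adjusted p was 0.0523 without YE 2. Of 14 genes of the citric acid cycle 12 had a negative fold change (median −0.11) and 1 fell, Suclg1, a subunit of succinyl-CoA ligase (−0.25, SE 0.05, adjusted p = 0.047), a call lost in 10 of 12 fits with a library left out, with an adjusted p of up to 0.153 without OE 1. Sod2, the superoxide dismutase of mitochondria, had 75.2, 84.1 and 83.2 FPKM in OE and 97.8, 111 and 98.3 FPKM in YE soleus (−0.29, SE 0.05, adjusted p = 0.0258). Its call was lost in 4 of 12 fits with a library left out, with an adjusted p of up to 0.0903 without OE 1. Of the 14 genes of the oxidative stress list, Nqo1 rose and Sod2 fell.

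Immune lists held no gene that passed. In the interferon list 30 of 31 fold changes were negative, with a median of −0.33, and 1 library stood apart. YE 1 had a mean of 2.55 on the log2 scale over the list, against 1.43 to 1.60 in the other 5 libraries, and without it 19 of the 31 were negative, with a median of −0.02. Of 16 macrophage genes 14 had a positive fold change (median 0.15), and the 6 defining markers summed to 37.1 to 43.4 FPKM in OE and 21.6 to 57.6 FPKM in YE soleus. YE libraries lay on both sides of the OE libraries. Over the macrophage list YE 4 stood apart, with a mean of 1.65 on the log2 scale. YE 1 and YE 2 were at 2.42 and 2.29 there, and OE libraries at 2.23 to 2.30. OE 3 stood apart in the lymphocyte list, with a sum of 7.53 FPKM, against 0.328 to 1.86 FPKM in the other OE and YE libraries. In the neutrophil list OE 3 summed to 11.7 FPKM, against 0.349 to 1.83 FPKM. The source of this RNA in OE 3 was not tested.

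Meg3 and Rian, noncoding RNAs of 1 imprinted cluster, fell. Meg3, a long noncoding RNA made from the maternal chromosome (chr12:109540996-109571729, GRCm38.p6), had 3.27, 2.75 and 1.86 FPKM in OE soleus, against 7.23, 6.44 and 6.27 FPKM in YE soleus. It fell by 1.06 (SE 0.15, adjusted p = 0.0139) whichever library was left out. Rian, from the same cluster (chr12:109603945-109661716), had 1.15, 0.732 and 0.842 FPKM in OE and 2.43, 2.5 and 1.68 FPKM in YE soleus and fell by 0.65 (SE 0.12, adjusted p = 0.026), a call lost in 5 of 12 fits with a library left out, with an adjusted p of up to 0.0883 without YE 1. The third long RNA of the cluster, Mirg, had a fold change of −0.14 (adjusted p = 0.17). The study names Meg3 and Rian among the genes shared by its muscles, a list of 33 genes that it chose in other comparisons of this series, these 2 in OC against YC. Of that list 6 rose and 6 fell here, beside 2% and 0.782% of all genes. Kcng4, a potassium channel subunit, Wif1, an inhibitor of Wnt signals, and Snord99, a small nucleolar RNA, were also among the 15 largest falls, at −0.86, −0.76 and −0.94. With 1 library left out their adjusted p reached 0.128 (Kcng4) and 0.0719 (Wif1) without OE 1, and 0.0680 (Snord99) without OE 3.

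Clock genes changed on both sides of the loop. Of the 20 clock genes in the list, 2 rose and 1 fell, beside 2% and 0.782% of all genes. Arntl, which encodes BMAL1, an activator of the loop, rose. Dbp, a transcription factor that BMAL1 and CLOCK switch on, fell. The promoters of these 2 genes are shown because the data bear on both, from 250 bases before to 50 bases after the first base of the gene, as RefSeq gives them in GRCm38.p6, 5′ to 3′ on the strand of the gene. Capitals mark AGGTCA, the core of the element bound by REV-ERB receptors, which was searched on both strands together with CACGTG, the core of the E-box bound by BMAL1 and CLOCK, and TTATGTAA, the core of the D-box bound by DBP. The Arntl promoter lies at chr7:113207261-113207560 on the plus strand and is 1 of 2 listed for the gene, and that of Dbp lies at chr7:45704997-45705296 on the plus strand.
Arntl: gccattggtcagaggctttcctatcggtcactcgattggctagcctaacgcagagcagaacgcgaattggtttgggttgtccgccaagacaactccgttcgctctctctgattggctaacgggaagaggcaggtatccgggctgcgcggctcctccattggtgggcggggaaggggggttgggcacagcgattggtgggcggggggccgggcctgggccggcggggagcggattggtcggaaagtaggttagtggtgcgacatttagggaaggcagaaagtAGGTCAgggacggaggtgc
Dbp: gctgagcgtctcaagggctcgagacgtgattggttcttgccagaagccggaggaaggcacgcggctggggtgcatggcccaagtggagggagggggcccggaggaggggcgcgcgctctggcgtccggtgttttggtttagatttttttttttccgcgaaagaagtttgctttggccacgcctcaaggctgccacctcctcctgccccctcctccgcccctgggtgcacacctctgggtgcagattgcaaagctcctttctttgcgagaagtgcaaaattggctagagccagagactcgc
The Arntl window was picked among those that hold AGGTCA, so its match, which occurs once, was fixed by that choice. The window of Dbp holds none of the 3 cores. AGGTCA occurs in 16.3% of 32851 promoters in the table, CACGTG in 7.15% and TTATGTAA in 0.938%. Of 17 clock genes with an entry, 5, 5 and 1 hold them in any of their 22 promoters, a count by gene that cannot be set against shares by promoter. A match is a description and not a site, and the absence of these letters in so short a window says nothing of the factors.

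Arntl had 3.83, 4.95 and 4.87 FPKM in OE soleus, against 2.33, 2.34 and 2.43 FPKM in YE soleus. It rose by 0.77 (SE 0.12, adjusted p = 0.0167), with separate groups, and lost the call in 3 of 12 fits with a library left out, with an adjusted p of up to 0.0572 without OE 3. Dbp had 25.9, 22.5 and 22.9 FPKM in OE and 64.4, 49.3 and 56.9 FPKM in YE soleus and fell by 1.21 (SE 0.12, adjusted p = 0.00428) whichever library was left out. Per3, a repressor of the loop, had 10.4, 7.24 and 9.61 FPKM in OE and 17.2, 13.4 and 14.9 FPKM in YE soleus, with separate groups and an adjusted p of 0.197. The hour at which muscles were taken is not given in the sources used here, and the part of the hour in these values was not tested.

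Untrained mice offer the same comparison of ages in other animals. In OC against YC soleus 820 genes changed (4.36%), of which 543 rose (2.89%) and 277 fell (1.47%), and 261 genes were called in both, which is 49.9% of the 523 and 31.8% of the 820. Of those 261, 258 moved the same way. Among the 376 genes that rose in trained mice 361 had the same sign in untrained mice and 215 also rose, and among the 147 that fell 139 had the same sign and 43 also fell. The share of equal signs over all genes was not counted. Both comparisons came from the same fit and shared the spread of each gene, so their calls are not independent. Cyfip2 rose by 1.59 in trained and by 1.28 in untrained soleus, Myh14 by 0.87 and 0.69, and Nqo1 by 0.99 and 0.97. Tfrc fell by 1.57 in trained and by 2.23 in untrained soleus, and Meg3 by 1.06 and 1.03.

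The test of the difference itself, the age effect in trained mice minus that in control mice, gave no gene at an adjusted p under 0.05 in limma (smallest 0.158), and 1156 genes at an unadjusted p under 0.05 (6.15%). In a fit on all 24 libraries 4 genes passed, Arntl among them at an adjusted p of 0.0226, and with 0.1 in place of 1 as the pseudocount 1 gene did. Values of single genes below are therefore unadjusted, and the genes were singled out after their values were seen. Arntl, Gstcd and Mir7682 were called in opposite directions in the 2 comparisons.

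**Figure D4:**
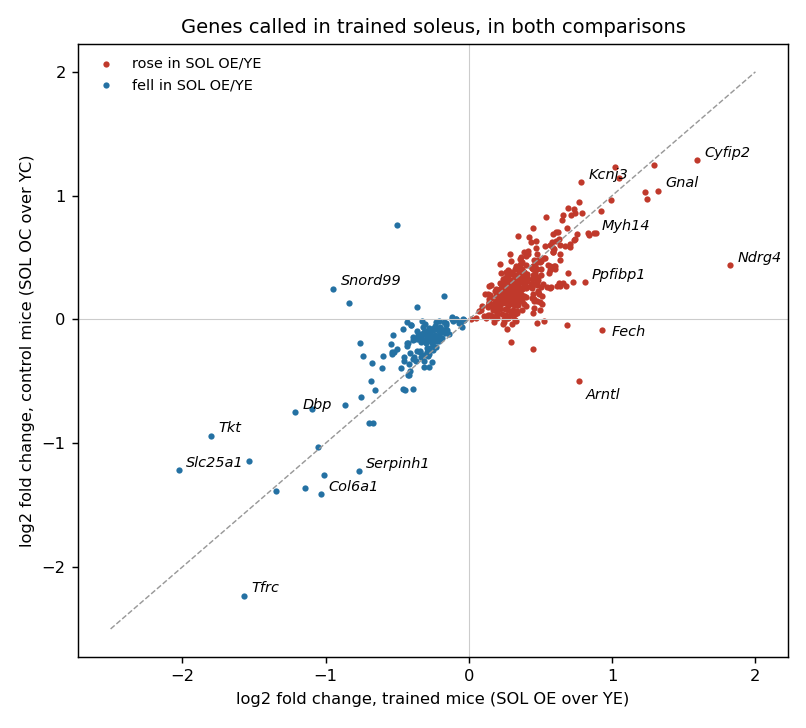
The 523 genes that changed in trained soleus, by log2 fold change in trained mice (x axis, SOL OE over YE) and in control mice (y axis, SOL OC over YC), red where they rose and blue where they fell in trained mice, with equal changes on the dashed line. Most lie in the corners of equal sign, and Arntl, at 0.77 and −0.50, does not.

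Arntl had the smallest unadjusted p for this difference among the clock genes. It had 3.83, 4.95 and 4.87 FPKM in OE against 2.33, 2.34 and 2.43 FPKM in YE soleus, but 2.39, 2.44 and 3.3 FPKM in OC against 5.12, 4.06 and 4.38 FPKM in YC soleus. The age effect was 0.77 in trained and −0.50 in control mice, and differed by 1.27 (SE 0.16, unadjusted p = 2.7e-05, adjusted p = 0.169). Per2, a repressor of the loop, had the mirrored pattern, at 5.61, 6.14 and 6.74 FPKM in OE against 8.39, 7.52 and 7.86 FPKM in YE, and 7.82, 6.96 and 7.54 FPKM in OC against 5.44, 6.45 and 5.69 FPKM in YC soleus. Its age effects differed by −0.65 (SE 0.10, unadjusted p = 0.000142). In both genes the 2 age groups did not overlap under either condition. Nr1d1, which encodes REV-ERB alpha, had 27.4, 23.4 and 17.5 FPKM in OE against 42.2, 25.5 and 24 FPKM in YE soleus, and 26, 22.4 and 28.3 FPKM in OC against 77.1, 79.5 and 67.7 FPKM in YC soleus. YC libraries stood above all others, OE and YE libraries overlapped, and the age effects differed by 1.20 (SE 0.34, unadjusted p = 0.00645). Clock and Cry1 differed by 0.45 and −0.58 (unadjusted p = 0.000249 and 0.000521). In all, 9 of the 20 clock genes had an unadjusted p under 0.05 for the difference, beside 6.15% of all genes.

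**Figure D5:**
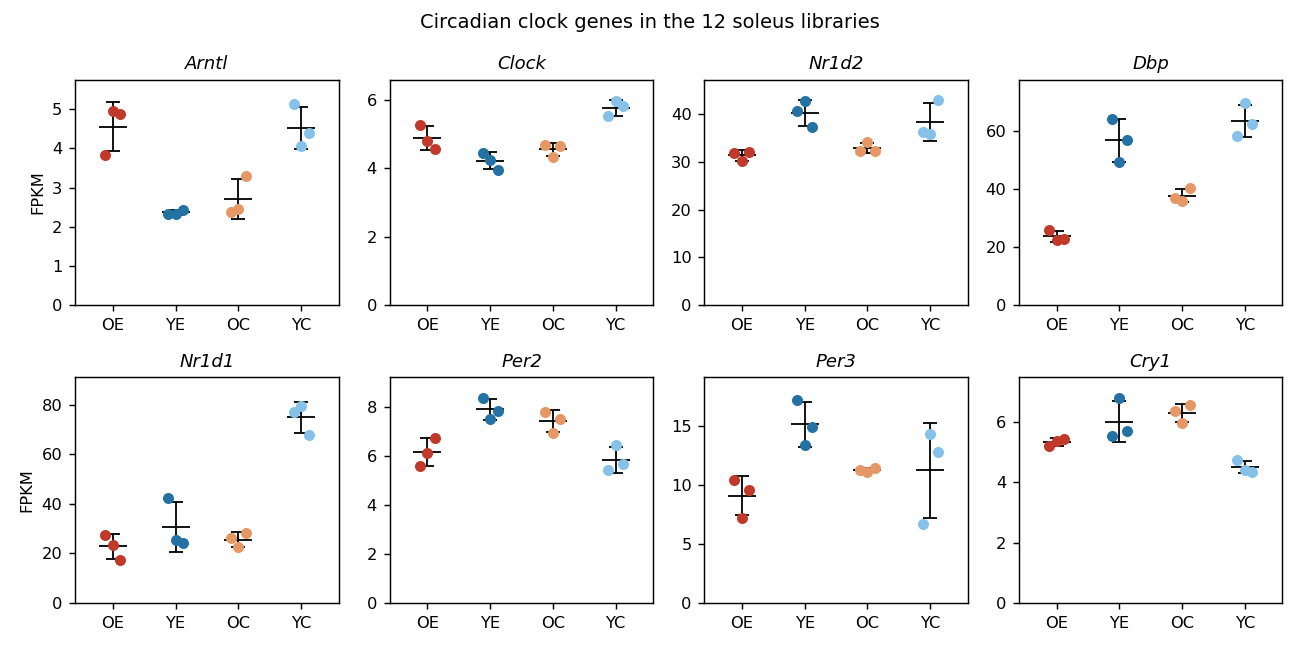
FPKM (y axis) of 8 clock genes in each soleus library of OE, YE, OC and YC mice (x axis). Points are mice, the long line is the mean and the bars are 1 SD (n = 3 each), and Arntl was higher in OE than in YE libraries but lower in OC than in YC libraries.

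Other genes had an age effect in trained mice that was small or absent among controls. Fech had 64.1, 66.7 and 73.7 FPKM in OE against 36, 37.6 and 37.8 FPKM in YE soleus, and 39.2, 40.9 and 38.3 FPKM in OC against 35.2, 55.3 and 36.7 FPKM in YC soleus. OE libraries stood above all others, with YC 2 next, and the age effects differed by 1.02 (SE 0.24, unadjusted p = 0.00184). Ndrg4 had an age effect of 1.82 in trained and 0.44 in control mice, a difference of 1.39 (SE 0.36, unadjusted p = 0.00364). Ncam1 had 0.53 and −0.01 (difference 0.54, SE 0.14, unadjusted p = 0.00451), and Yap1 had 0.50 and 0.07 (difference 0.43, SE 0.08, unadjusted p = 0.000419). Ndufv2 had −0.33 and −0.01 (difference −0.32, SE 0.08, unadjusted p = 0.00299), and the 76 genes of oxidative phosphorylation had a median age effect of −0.17 in trained and −0.06 in control mice.

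Medians of the matrix lists were nearer to 0 in trained than in control mice. The 27 collagen genes had a median age effect of −0.38 in trained and −0.70 in control mice, the 20 other matrix proteins −0.14 and −0.62. YC 2 stood above the other YC libraries, with a mean of 3.73 on the log2 scale over the collagen list, against 3.40 and 3.25, and 4.76 over the adipocyte list, against 3.43 and 3.26. Without YC 2 the medians in control mice were −0.64 for collagens and −0.44 for other matrix proteins. Eln, elastin, had −0.28 and −1.14 (difference 0.86, SE 0.18, unadjusted p = 0.00111), and Serpinh1 had −0.77 and −1.23 (difference 0.46, SE 0.16, unadjusted p = 0.0206). Col3a1, the chain of type III collagen, had −1.07 and −2.26 (difference 1.20, SE 0.46, unadjusted p = 0.028). Its unadjusted p was 0.0618 without YC 2 and, at most, 0.0668 without YE 4. Of the 27 collagen genes 9 had an unadjusted p under 0.05 for the difference, but 5 without YC 2, and between 3 (without OE 1 or OC 4) and 14 (without YE 1) with any 1 library left out.

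The gastrocnemius, a mixed and mostly fast muscle, was taken from the same mice. In OE against YE gastrocnemius 296 genes changed (1.57%), of which 208 rose (1.11%) and 88 fell (0.468%). These calls came from a fit on all 24 libraries, with another spread than the soleus fit. In that fit 453 genes changed in soleus, 288 of them among the 523. Of the 376 genes that rose in trained soleus 315 had the same sign in gastrocnemius and 51 also rose, and of the 147 that fell 111 had the same sign and 17 also fell. How often signs were equal over all genes was not counted here either. Dbp fell by 1.07 in gastrocnemius (adjusted p = 0.000465), Arntl rose by 0.90 (adjusted p = 0.00116), Prkcz by 0.82 (adjusted p = 0.000923) and Myh14 by 0.62 (adjusted p = 0.000849). The 76 genes of oxidative phosphorylation had a median of −0.06. The age effect differed between the muscles in 26 genes (0.138%, adjusted p under 0.05), 16 with a higher (0.0851%) and 10 with a lower value (0.0532%) in soleus, and in 43 genes when the mouse was a block. Ndrg4, at 1.82 in soleus and 0.11 in gastrocnemius, was among the 26, with a difference of 1.71 (SE 0.31, adjusted p = 0.0289).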

How the data were processed

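Members and gene lists were chosen with earlier results of these data known. The study sequenced poly-A RNA (TruSeq Stranded mRNA kit) of 24 muscles. Per the labels' processing notes the authors used HISAT2 2.1.0, StringTie 1.3.4d and mm10, among other tools whose role is not given. The deposited table holds FPKM per gene and library, and log2 values that the authors made as log2(FPKM + 1) and quantile normalized over 24 libraries; a repeat lay within 5e-09. The 40 columns of the authors' comparisons (signed fold, p-values, statistics and means on the log2 scale) were not used. Read counts were not used here, so depth is unknown. For 31 genes whose symbols read as dates or numbers or were missing, the symbol was taken from the gene ID, and 18758 IDs were found in GRCm38.p6.

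The log2 values of the 12 soleus libraries were fitted by group with limma 3.58.1 (R 4.3.3, intensity trend, two-sided, no block), with Benjamini-Hochberg adjustment over 18795 genes and no filter, which lets the 6 compared libraries share the spread of all 12. An exact permutation test of 3 against 3 cannot go below p = 0.1. The gastrocnemius values and the difference between soleus and gastrocnemius came from a fit on 24 libraries. Equal numbers in both muscles were taken as the same mouse, since each group held 3 mice; deviations correlated at over 0.1 in 6 of 12 pairs. The named genes are the 15 largest rises and 15 largest falls with separate groups and a mean of at least 1 FPKM, up to 4 genes per list by adjusted p, and genes singled out later, which the text marks where a result turns on them. The fit was tested on simulated data. Alternatives were the equal-variance test, only the compared libraries, all 24, no trend, another pseudocount, a filter on low FPKM, other normalizations, a block and each library left out. Some genes are not reported here by name.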

Additional observations from a re-analysis of the deposited data

Results flagged for a closer look

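The age effect in trained mice, OE minus YE on the log2 scale, differed between soleus and gastrocnemius in 26 genes by a test of the difference itself in a fit on 24 libraries (limma, Benjamini-Hochberg adjusted p under 0.05). The 10 with the smallest adjusted p at 1 FPKM or more are given here, as soleus minus gastrocnemius.

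Of these, 4 changed in gastrocnemius and had a fold change near 0 in soleus. Kcnab1, a potassium channel subunit, differed by −1.53 and had 5.5, 4.43 and 3.82 FPKM in OE against 1.12, 0.928 and 1.1 FPKM in YE gastrocnemius. Dkk3, a secreted protein of the dickkopf family, differed by −1.48 and had 12.1, 9.42 and 11.7 FPKM in OE against 3.18, 3.08 and 3.1 FPKM in YE gastrocnemius. Tmem132b differed by −1.13, and Cdc27, a subunit of the anaphase-promoting complex, by 0.78, with 2.45, 2.25 and 1.86 FPKM in OE against 4.6, 4.01 and 4.24 FPKM in YE gastrocnemius. Groups did not overlap in any of the 4. These genes were picked by a test on the same libraries, so their separate groups add nothing to it. The share of such genes over all genes was not counted in gastrocnemius.

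The other 6 rose in soleus and were low in gastrocnemius of both ages, at 0.421 FPKM or less in each library. The difference was 1.22 for Amph, 1.16 for Gnal, 0.71 for Kcnj3, 0.70 for Ccdc64, 0.67 for Gpr27 and 0.46 for Myo5b. With a pseudocount of 0.1 the difference no longer passed for these 6 or for Dkk3.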

How the results depend on the processing

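All 523 genes kept their sign in every setting tried (427 of them tested with the filter on low FPKM), and no called gene turned its direction. For most settings this was fixed in advance. Groups of these genes do not overlap, so leaving out 1 OE or YE library cannot turn a sign. Leaving out an OC or YC library, another test or spread and the filter do not alter the fold change. Only other normalizations, the other pseudocount and the block could have turned it. The number of genes that changed, 523 (376 rose, 147 fell), was 0 (0 and 0) by the equal-variance test, 6 (5 and 1) with only the 6 compared libraries, and 298 (163 rose) without quantile normalization. With 1 of 12 libraries left out it ran from 117 (without OE 1) to 655 (without YC 2), with 98 to 409 rises and 19 to 246 falls; without OE 2, OE 3, YE 1 or YE 2 it was 245, 169, 156 or 142. It was 453 to 660 in the other settings without a block. DEGs numbered 198, but 768 with a pseudocount of 0.1, which raises the folds of low genes by construction. The difference between trained and control mice held 0 genes, 4 with all 24 libraries, 1 with a pseudocount of 0.1 and 0 to 4 with a library left out. The difference between muscles held 26 genes, 13 with a filter on low FPKM, 16 with a pseudocount of 0.1, 43 with a replicate block on the mouse and 23 to 41 with a library left out (41 without GAS OE 1).

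OE and YE mice are different animals that share only a number, and their 2 same-numbered pairs correlated at 0.0636 and −0.218. A replicate block on that number left 0 genes changed, 0 risen and 0 fallen. Of the 30 genes with the largest changes, 13 kept the call with each of the 12 soleus libraries left out: Tfrc, Dbp, Meg3, Ppfibp1, Myh14, Ogdhl, Cds1, Rasd2, Prkcz, Amph, Gnal, Cyfip2 and Ndrg4. The cause of these dependences was not tested. Depth in reads is unknown, so the counting error of low values cannot be given.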
